A study of Mus musculus with 9 samples.

Results

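The genes described here are embryonic globins and other genes of red cell formation, followed in the urogenital sinus of fetal and newborn mice: Alas2, Hba-x, Hbb-y, Hbb-bh1, Slc4a1, Ahsp, Epb42, Hemgn and Klf1. The members are every probe set listed to exactly 1 of these 9 symbols, read on all 9 arrays after scaling the arrays to a common distribution. Of the 9 genes, 8 had such a probe set, 15 probe sets in all, among 18194 genes with a probe set of their own; Ahsp was not analysed here. The genes were chosen by values of these same arrays, among them the Alas2 signal of the BPA E18 array and the lower level of red cell genes at birth. Their levels are therefore given as a description without a test.

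The urogenital sinus is the embryonic structure from which the prostate and parts of the lower urinary tract form. C57BL/6 dams received the corn oil vehicle (control), the synthetic estrogen diethylstilbestrol (DES) at 0.2 µg/kg/day, or BPA (bisphenol A, a weakly estrogenic building block of plastics) at 20 µg/kg/day, all on E13 to E16. Collection was on embryonic days 17 and 18 (E17, E18) or the day of birth (P0), and 1 Affymetrix array was hybridised for each of the 9 combinations of agent and age, so that each agent and each age held 3 arrays. All groups share the strain and the dissection, which took away bladder, urethra and the genital ducts; the labels give neither the sex nor the number of animals or litters behind an array, and the spread between arrays may be partly technical. All 7 measured marker genes of the sinus (Shh, Hoxa13, Hoxd13, Foxa1, Trp63, Krt5 and Krt8) read above the filter signal of 41.2 on every array. In whole tissue, fewer red cells and less of a transcript per red cell cannot be told apart.

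Red cells of the mouse embryo form in waves. Primitive red cells arise in the yolk sac and carry embryonic globins, the zeta-like alpha chain Hba-x and the beta-like chains Hbb-y and Hbb-bh1, whereas definitive red cells, made first in the fetal liver, carry adult globins. Alas2 performs the first step of heme synthesis in red cell precursors, Slc4a1 (band 3) is the anion exchanger of the red cell membrane and Epb42 (protein 4.2) binds it, and Klf1 is a transcription factor that binds CACCC-type sequences in red cell genes.

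The sequences upstream of the start sites are shown as a description of the genes. Whether they bear on the signals was not tested. RefSeq (GRCm38.p6) gave a promoter for 6 of the 9 genes. The 250 bases before the start are printed for the 4 whose values are described most closely, each read 5′ to 3′ on the gene's own strand. Alas2 lies at chrX:150547167-150547416 (plus strand), Hba-x at chr11:32276350-32276599 (plus), Hbb-y at chr7:103853208-103853457 (minus) and Klf1 at chr8:84901732-84901981 (plus). Capitals mark matches on either strand to a GATA word, which is GATAA or GATAG with an A or a T before it, to the CACCC-type word CCNCNCCC or to CCAAT.
Alas2: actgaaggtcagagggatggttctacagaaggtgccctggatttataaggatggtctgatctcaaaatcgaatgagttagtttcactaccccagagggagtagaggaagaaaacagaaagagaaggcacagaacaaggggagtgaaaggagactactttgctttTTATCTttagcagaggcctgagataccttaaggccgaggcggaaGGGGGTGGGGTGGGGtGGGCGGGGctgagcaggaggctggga
Hba-x: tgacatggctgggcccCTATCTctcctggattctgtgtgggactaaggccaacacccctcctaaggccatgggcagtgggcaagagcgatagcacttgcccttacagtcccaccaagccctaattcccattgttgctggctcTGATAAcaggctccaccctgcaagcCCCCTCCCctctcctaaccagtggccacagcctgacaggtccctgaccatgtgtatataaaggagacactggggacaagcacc
Hbb-y: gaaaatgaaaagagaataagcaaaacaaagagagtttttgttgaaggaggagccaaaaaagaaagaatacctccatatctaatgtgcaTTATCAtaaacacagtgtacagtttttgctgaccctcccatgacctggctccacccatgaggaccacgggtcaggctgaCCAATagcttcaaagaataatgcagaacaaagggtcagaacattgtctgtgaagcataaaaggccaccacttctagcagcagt
Klf1: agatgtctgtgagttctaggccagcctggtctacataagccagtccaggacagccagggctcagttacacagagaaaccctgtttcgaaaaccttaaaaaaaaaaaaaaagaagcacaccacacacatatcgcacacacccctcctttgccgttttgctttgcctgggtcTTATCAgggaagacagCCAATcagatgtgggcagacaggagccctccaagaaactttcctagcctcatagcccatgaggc
A GATA word was present in 6 of the 6 promoters, Epb42 and Hemgn being the others, and in 26.5% of 32851 RefSeq promoter windows of the same length. In Alas2 it lay 81 to 86 bases before the start, in Hbb-y 157 to 162 and in Klf1 75 to 80, and Hba-x held 2. The word CCNCNCCC, found in 45.9% of all windows, occurred 4 times in Alas2, where 3 of the matches overlap, 4 times in Hemgn, where all overlap in 1 run of G, and 1 time in Hba-x; Hbb-y, Klf1 and Epb42 held none. CCAAT, found in 33.8% of all windows, occurred 1 time each in Hbb-y and Klf1. The word CCNCNCCC does not cover every CACCC. The letters CACCC, which were not counted, also stand in the printed sequences of Hbb-y and Klf1. All of these are matches of letters and say nothing of binding.

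Alas2 read far higher on the BPA E18 array than on any other. At E17, E18 and P0 in that order, its normalised signal was 739, 363 and 502 on the control arrays, 928, 357 and 388 on the DES arrays, and 695, 1997 and 297 on the BPA arrays. The order of the other arrays followed age more than agent: the 3 E17 arrays came next, the DES and control E18 arrays lay close to the P0 arrays, and BPA P0 was the lowest. Over the 3 agents the mean at E17 was 787 ± 124, that at E18 906 ± 945 and that at P0 396 ± 103 (SD, n = 3), so that the E17 and P0 arrays did not overlap while the E18 arrays spanned both.

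Hbb-y, the embryonic beta-like globin, had its lowest signals at birth. In the same order of ages it read 55.0, 12.6 and 7.33 in control, 203, 46.2 and 1.38 in DES, and 33.4, 91.2 and 7.45 in BPA. Within control and DES the signal was lower at each later age, whereas within BPA the E18 array was the highest. All 3 P0 arrays lay below all other arrays, at signals near the pseudocount of 5.46 that is added before taking logs, so that log2 differences of Hbb-y understate its change. Hba-x, the embryonic alpha-like globin, read 46.8, 38.6 and 35.7 in control, 116, 55.6 and 36.0 in DES, and 35.1, 77.7 and 16.4 in BPA. As for Hbb-y, DES E17 was the highest array and BPA E18 the next, but the E17 and P0 arrays overlapped, since BPA E17 read less than control P0 and DES P0. Hbb-bh1, the other embryonic beta-like chain, stayed between 2.19 and 5.49 on its brightest probe set, where an order between arrays cannot be read.

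Of the membrane genes, Slc4a1 had a pattern close to that of Alas2. It read 185, 82.1 and 103 in control at E17, E18 and P0, 314, 64.0 and 53.8 in DES, and 61.7, 288 and 69.3 in BPA. DES E17 and BPA E18 stood highest, followed by control E17, and BPA E17 was among the lower arrays. Epb42 stayed between 3.96 and 7.49, near the pseudocount.

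The 2 regulators of red cell formation behaved differently from the globins. Klf1 read 53.0, 83.3 and 44.6 in control, 59.3, 52.8 and 50.7 in DES, and 39.4, 69.0 and 94.4 in BPA. Its highest normalised signal was on the BPA P0 array, where Alas2 and Hba-x had their lowest. That rank of Klf1 depends on the scaling. In the signals as deposited it read 61.8 on BPA P0 and was highest on control E18 (82.5). Hemgn, a nuclear protein of blood precursors, read 20.7, 1.56 and 26.1 in control, 16.8, 15.2 and 3.59 in DES, and 13.2, 32.8 and 24.0 in BPA. Its BPA E18 signal was again the highest, but all 9 values lay below the filter signal.

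**Figure D1:**
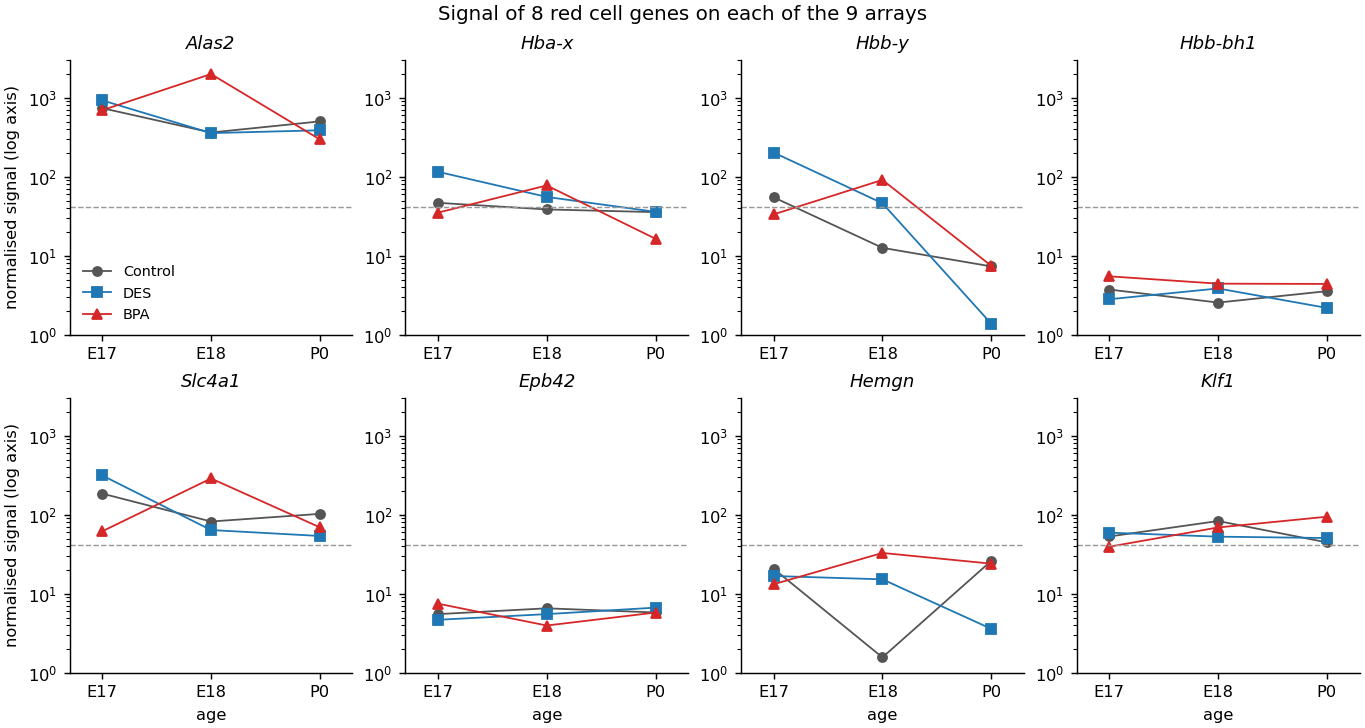
Normalised signal (log axis) of the 8 measured genes against age, 1 point for each array, with control in grey, DES in blue and BPA in red; the dashed line is the filter signal of 41.2. Alas2 reached 1997 on the BPA E18 array, and Hbb-y read 1.38 to 7.45 on the 3 P0 arrays.

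Where a gene had several probe sets, those with signals clear of the floor had similar patterns, with the arrays not in the same order throughout. The 3 probe sets of Hbb-y correlated over the 9 arrays with Pearson's r of 0.98, 0.95 and 0.93. Of these, 2 carry the suffix that Affymetrix gives to sets whose probes may also match related transcripts, and the one without it likewise read highest on DES E17 (119) and next highest on BPA E18 (47.9). Cross-hybridisation between near-identical globin transcripts makes the assignment of such signals uncertain. Of the 3 probe sets of Slc4a1, 2 correlated at r = 0.98, although DES E17 was the highest array on the set used (314, with 288 on BPA E18) and BPA E18 on the other (276, with 264 on DES E17), and the remaining set read between 1.20 and 19.4. These coefficients share the arrays and are a description.

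**Figure D2:**
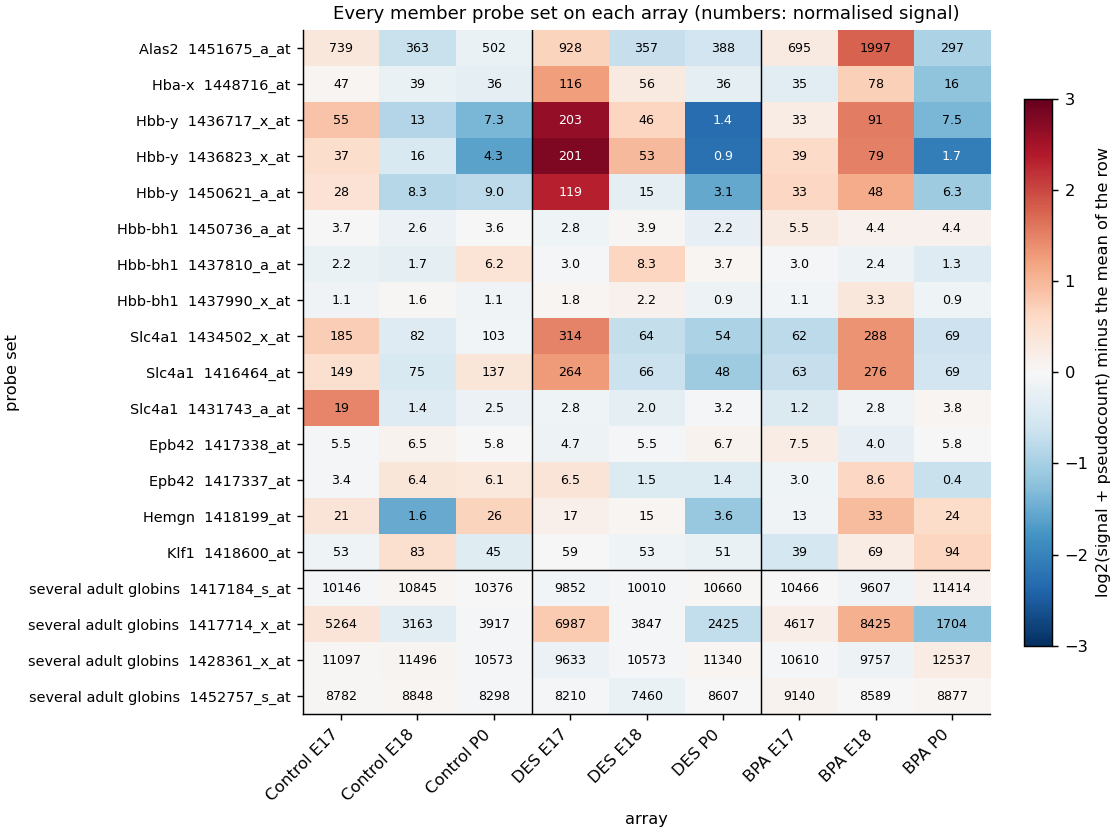
Heat map of the 15 probe sets of the 8 genes and of 4 probe sets listed to several adult globin genes (rows) on the 9 arrays (columns); colour is log2(signal + 5.46) minus the mean of the row and the printed numbers are normalised signals. The 3 Hbb-y rows are red on DES E17 and BPA E18 and blue on the P0 arrays.

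Of 4 probe sets listed to more than 1 adult globin gene, 3 were very bright and read nearly the same on all arrays. Their highest signal was 1.19, 1.23 and 1.30 times the lowest, between 7460 and 12537, and over the 9 arrays they had r = -0.79, 0.11 and -0.78 with Alas2. Whether these sets are saturated cannot be told from the deposited values, so their near-constant signals are not read as a level of adult globin. The fourth such set read 5264, 3163 and 3917 in control at E17, E18 and P0, 6987, 3847 and 2425 in DES, and 4617, 8425 and 1704 in BPA. It thus ranked BPA E18 and DES E17 highest and BPA P0 lowest, a 4.94-fold range, with r = 0.90 against Alas2 over 9 arrays. Hbb-b2, the adult beta globin with a probe set of its own, read 510, 254 and 321 in control, 876, 242 and 175 in DES, and 487, 1082 and 204 in BPA. Hbb-b2 too was highest on BPA E18 and DES E17, with the same caution about related transcripts. The adult alpha globins Hba-a1 and Hba-a2 also had probe sets of their own, which did not pass the filter and had another order. Hba-a1 read 29.3 on BPA E18 and 29.0 on DES E17, and was highest on control P0 (35.9). Hba-a2 read 41.4 and 28.9 on these arrays, and was highest on DES P0 (51.1).

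Correlations between the genes are described, since all rest on the same 9 arrays and on genes picked with these values known. Alas2 and Slc4a1 correlated at r = 0.82 (Spearman's rho 0.65), and Hba-x and Hbb-y at r = 0.83 (rho 0.78). Without the BPA E18 and DES E17 arrays the coefficients were r = 0.56 and r = 0.56, lower than with all arrays. Klf1 had r = -0.16 with Alas2 (rho -0.17), and r = -0.71 without these arrays. Epb42, at signals near the pseudocount, had r = -0.83 with Slc4a1 and -0.64 with Alas2. Without the same arrays these were -0.53 and 0.22.

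The first comparison was between ages. In a linear model with age and agent, P0 minus E17 was -2.92 ± 0.69 log2 units for Hbb-y (SE), -1.03 ± 0.62 for Slc4a1, -1.0 ± 0.51 for Alas2, -0.93 ± 0.39 for Hba-x and 0.24 ± 0.30 for Klf1. Hbb-y did not pass the filter, and its standard error came from the same model fitted to all genes. The median of the 8 genes was -0.53 against 0.01 for all genes, and it was -0.19 without the DES E17 array and -0.99 without the control P0 array. For Alas2 and Hbb-y, 2 of the 8 genes, all P0 signals lay below all E17 signals, as they did for 8.01% of all genes; the genes were picked with this contrast known, so nothing is read from that count. Alas2, Hba-x, Hbb-y and Hbb-bh1 were lower at P0 than at E17 within each of the 3 agents, the last at signals too low to order. The value for Alas2 was -0.45 without the BPA P0 array and that for Slc4a1 -0.23 without the DES E17 array.

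Set against Alas2 in the same tissue, the embryonic beta-like globin had the larger difference. The change of Hbb-y from E17 to P0 minus that of Alas2 was -1.69 in control, -3.68 in DES and -0.38 in BPA, a mean of -1.92 ± 1.66 log2 units (SD, n = 3). For Hba-x the same quantity was 0.21, -0.30 and 0.32, a mean of 0.08 ± 0.33. Hbb-y thus lay below Alas2 in this quantity in every agent, by amounts that varied about as much as their mean, and Hba-x did not stand apart from Alas2 beyond the spread between agents.

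The second question, whether BPA or DES altered these genes, rests on differences between single arrays. For BPA none of Alas2, Hbb-y, Slc4a1 and Hba-x kept its sign across the 3 ages, and for DES Hba-x alone of these kept it, with a value near 0 at P0. At E18, BPA minus control was 2.44 log2 units for Alas2, 2.42 for Hbb-y, 1.74 for Slc4a1 and 0.92 for Hba-x, with a median of 1.33 over the 8 genes and 0.01 over all genes. At E17 the same differences were -0.09, -0.64, -1.51 and -0.36, and at P0 they were -0.75, 0.01, -0.53 and -0.91. At E17, DES minus control was 1.78 for Hbb-y, 1.21 for Hba-x, 0.75 for Slc4a1 and 0.33 for Alas2. At E18 it was 1.52 for Hbb-y, 0.47 for Hba-x, -0.33 for Slc4a1 and -0.02 for Alas2, so that both embryonic globins were above control on 2 DES arrays. At P0 it was -0.90 for Hbb-y, 0.01 for Hba-x, -0.87 for Slc4a1 and -0.37 for Alas2. BPA and DES differences share their control arrays.

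Averaged over the 3 ages, the agent differences are given with their standard errors as a description. A difference larger than its standard error is not read as an effect of the agent. BPA minus control was 0.54 ± 0.51 log2 units for Alas2, 0.60 ± 0.69 for Hbb-y, -0.12 ± 0.39 for Hba-x, -0.10 ± 0.62 for Slc4a1 and 0.12 ± 0.30 for Klf1 (SE). DES minus control was -0.02 ± 0.51 for Alas2, 0.80 ± 0.69 for Hbb-y, 0.56 ± 0.39 for Hba-x, -0.15 ± 0.62 for Slc4a1 and -0.10 ± 0.30 for Klf1. Single arrays set these values: the BPA median over the 8 genes, 0.17 with all arrays, was -0.02 without BPA E18 and 0.63 without BPA E17. The DES value of Hbb-y was 0.00 without DES E17, and the BPA value of Slc4a1 was -1.07 without BPA E18 and 0.83 without BPA E17.

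The counts past a 2-fold difference show how many other genes were high on the same arrays. On BPA E18 against control E18, 1.07% of the 13400 genes that passed the filter on dim genes were at least 2-fold higher, and Alas2 and Slc4a1 were among them, 2 of the 4 genes described here that passed (Alas2, Hba-x, Slc4a1 and Klf1). Of 55 other red cell genes that passed, from lists of 79, 4 were 2-fold higher, and they are named because of these values: Hbb-b2, the mitochondrial iron importer Slc25a37, the ubiquitin-conjugating enzyme Ube2l6 and Tent5c, a poly(A) polymerase. On DES E17 against control E17, 0.433% of all genes were 2-fold higher, with Hba-x 1 of the 4 genes and 0 of the 55 others. Hbb-y stood above 2-fold on both arrays and did not pass the filter, which its mean log2 signal did not reach. The 4 genes were picked with values of these arrays known, so nothing is read from their counts.

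No difference of the other red cell genes between ages or agents passed the test. With limma and Benjamini-Hochberg adjustment over all 13400 genes, 0 of the 55 passed an adjusted p of 0.05 in any of the 6 comparisons, where the share of all genes that passed was 0.619% for P0 against E17, 0.0149% for BPA against control and 0% for the other 4. For P0 against E17, 3 were higher and 6 lower at an unadjusted p of 0.05, 9 of 55 against 19.2% of all genes. For E18 against E17 the count was 1 higher and 2 lower (3.19% of all genes), and for P0 against E18 it was 1 higher and 5 lower (14.3%). For BPA against control it was 3 higher and 1 lower (8.29%), for DES against control 2 higher and 0 lower (6.37%), and for BPA against DES 1 higher and 0 lower (7.81%).

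Among the iron genes, Tfrc, the transferrin receptor through which cells take up iron, had the smallest adjusted p. It read 905, 659 and 385 in control at E17, E18 and P0, 900, 785 and 816 in DES, and 1015, 684 and 537 in BPA. P0 was lower than E17 in each agent, least in DES, and the difference of -0.76 ± 0.17 log2 units had a limma adjusted p of 0.0787. Slc25a37 read 524, 233 and 283 in control, 784, 353 and 250 in DES, and 391, 960 and 219 in BPA, with P0 minus E17 at -1.11 ± 0.41 (limma adjusted p = 0.189). It was highest on BPA E18 and DES E17, whereas the ferritin heavy chain Fth1 stayed between 6829 and 7791 and the iron exporter Slc40a1 between 659 and 890.

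The heme synthesis list held 11 tested genes with a median P0 minus E17 of -0.06, and 5 stood above 0 and 6 below. Fech, which inserts iron into the porphyrin ring, read 1004, 890 and 1014 in control, 1292, 851 and 1133 in DES, and 744, 1596 and 1059 in BPA. Its highest array was BPA E18, while Urod stayed between 731 and 990 and Alad between 391 and 599. Cpox, a late enzyme of the pathway that is named for its value, had P0 minus E17 at -0.73 ± 0.19 (limma adjusted p = 0.0934). The 13 membrane and skeleton genes had a median of 0.04 for P0 against E17, with Mpp1 between 875 and 1136, Stom between 478 and 921 and the water channel Aqp1 between 407 and 751.

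Transcription and signalling genes had a median of -0.11 over 11 tested genes for P0 against E17. Gata1, the factor that drives red cell and megakaryocyte genes, read only 28.4 to 65.5, lowest on the BPA E18 array where Alas2 was highest. The brightest of this list, Cited2, Ldb1 and Lmo2, are active in many tissues. Enzyme and maturation genes had a median of -0.16 over 13, with 12 of 13 below 0. All genes had a median of 0.00, with 6659 of 13400 below 0. At an unadjusted p of 0.05 by limma, 0 of the 13 were lower. The 1 that was higher was Mkrn1, at 0.25 ± 0.10 log2 units (SE). Prdx2, an antioxidant enzyme abundant in red cells, stayed between 4388 and 4981 and Mkrn1 between 1086 and 1493, whereas Tent5c read 972 on BPA E18 and 756 on DES E17 against 371 to 558 elsewhere. Of the 55 genes, 14 (25.5%) had their highest signal on BPA E18, where 8.15% of all genes did, and 10 (18.2%) on control E17, where 8.22% of all genes did. DES E17 was the highest array of 3 of them (5.45%) and of 8.85% of all genes.

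**Figure D3:**
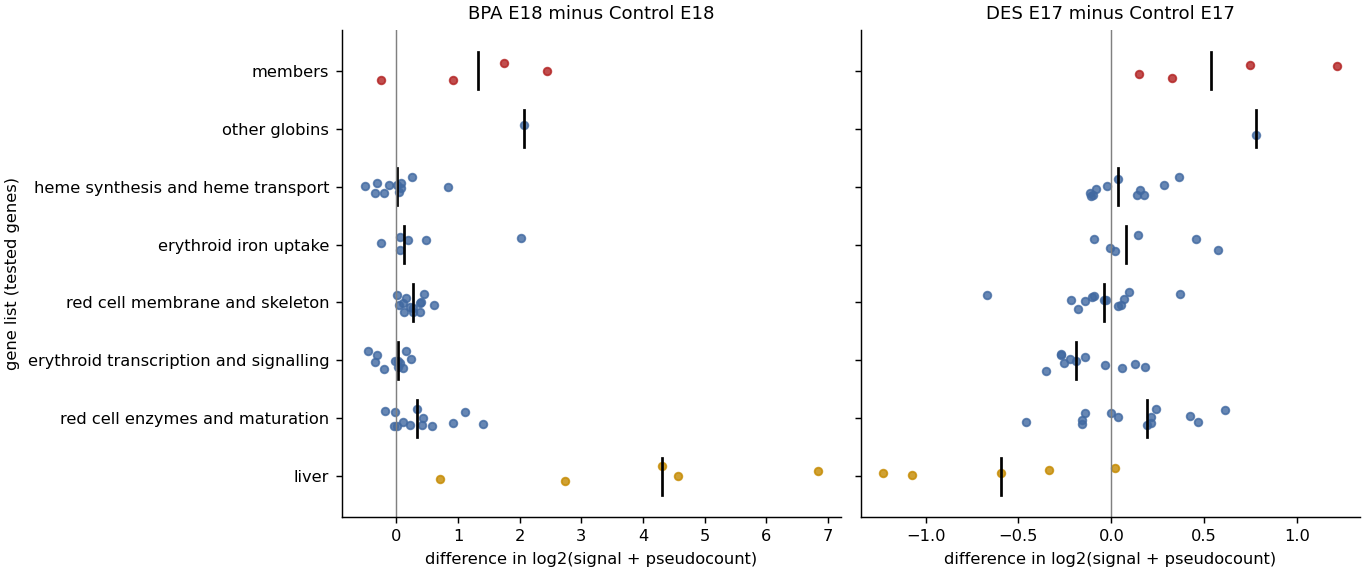
Difference in log2(signal + 5.46) between BPA E18 and control E18 (left) and between DES E17 and control E17 (right) for each tested gene of the listed groups; each dot is a gene, the black bar the median of the list, and the 2 panels have different scales. The 4 tested genes described here had a median of 1.33 on the left and 0.54 on the right, the heme synthesis list 0.00 and 0.04, and the liver list was far to the right in the left panel only.

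The genes most like the group were found by correlating all other tested genes with the mean standardised profile of Alas2, Hba-x, Slc4a1 and Klf1 over the 9 arrays. The 10 highest were Srprb (r = 0.95), Tpgs2 (0.93), Hspa12a, Tent5c and Kcnma1 (0.90 each), and Lmln, Slc25a37, Psip1, Cdr2 and Bpgm (0.88 each). Of these, Tent5c, Slc25a37 and Bpgm, which makes the 2,3-bisphosphoglycerate of red cells, were on the red cell lists. The coefficients are the highest over all tested genes and were lower without the BPA E18 and DES E17 arrays, between 0.43 for Tent5c and 0.81 for Kcnma1. They were 0.45 for Slc25a37, 0.52 for Bpgm, 0.65 for Srprb and 0.80 for Psip1. Srprb read 408 on BPA E18 and 380 on DES E17 against 284 to 326 elsewhere, a narrow range beside that of Alas2.

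The liver list was the marker list most like Alas2 over the arrays. The fetal liver is the main site of red cell formation at these ages, and 10 of 10 liver markers were measured. Their summed signal was 2540, 240 and 1476 in control at E17, E18 and P0, 1344, 413 and 312 in DES, and 1052, 2948 and 428 in BPA, which gives r = 0.84 with Alas2 over 9 arrays. At least the filter signal was read for 10 of the 10 on BPA E18, for 9 on control E17 and control P0, and for 3 on control E18. Alb, the serum albumin gene, read 802 on BPA E18 and 28.7 on control E18, and Afp, alpha-fetoprotein, 1014 and 3.44. The markers differed in this: Apoa2 read 106 and 62.7 on these arrays, and Apob 46.6 and 48.4. Apoa1 was highest on BPA E17 (351, with 175 on BPA E18). None was listed at 0. The liver list did not track the embryonic globins on DES E17, where Hbb-y and Hba-x were highest and the sum was 1344, less than on control E17. The part of liver RNA in the signals of Alas2 and the globins was not tested.

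The other marker lists had lower coefficients. Over the 9 arrays, the correlation of the summed signal with Alas2 was 0.24 for the sinus list, 0.05 for squamous keratinisation, -0.10 for megakaryocytes and platelets, -0.18 for neutrophils, -0.36 for macrophages, -0.46 for skeletal muscle and -0.52 for endothelium. The summed endothelial signal, from 10 of 10 markers, lay between 4063 on DES E17 and 5258 on control P0, and was 4432 on BPA E18 against 4700 on control E18. Neutrophil markers, 9 of 9 measured, summed to 1837 on control P0, 1318 on BPA P0 and 661 to 851 on the other arrays, and macrophage markers, also 9 of 9, to between 2593 and 3430. For P0 against E17, Alas2 and the embryonic globins were lower. There, 7 of 7 tested neutrophil genes and 8 of 8 tested macrophage genes stood above 0, against 6741 of all 13400 tested genes. Of these neutrophil and macrophage genes, 0 passed an adjusted p of 0.05 by limma (4 of each at an unadjusted p of 0.05, which 19.2% of all genes passed). The neutrophil sum was not higher at P0 in every agent, with 741 on DES P0 and 793 on DES E17. Of 10 endothelial genes, 8 stood above 0 and 0 passed, with 5 higher at an unadjusted p of 0.05 by limma. Of 8 skeletal muscle genes, 6 were higher at P0 at an adjusted p of 0.05 by limma, where 0.619% of all genes passed in either direction. The other 2, Ckm and Acta1, were lower, 1 of them at an unadjusted p of 0.05 by limma. The summed signal of the 8 was 10881 to 13245 at E17 and 15218 to 18373 at P0. The squamous sum stood apart on 2 of the BPA arrays, with 7525 on BPA E18 and 18966 on BPA P0 against 1181 to 2474 on the others. The part of these tissues in the signals of the red cell genes was not tested.

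**Figure D4:**
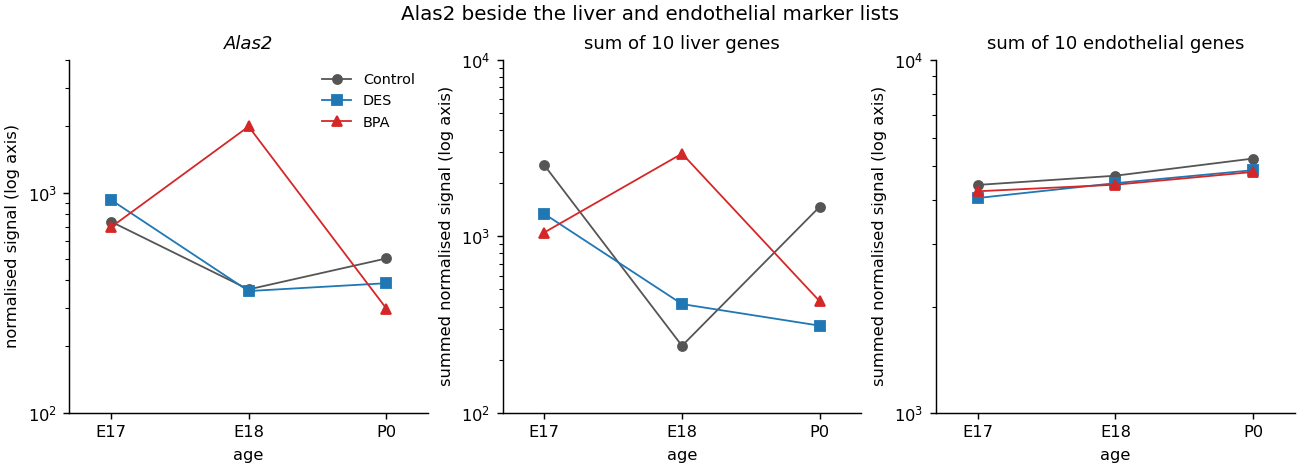
Normalised signal of Alas2 (left) and summed normalised signal of 10 liver markers (middle) and 10 endothelial markers (right), on log axes, against age, 1 point for each array. Alas2 and the liver sum were highest on BPA E18 (1997 and 2948), and the endothelial sum stayed between 4063 and 5258.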

How the data were processed

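RNA of dissected urogenital sinus was hybridised to 9 Affymetrix arrays. The authors deposited linear intensities, 1 for each probe set and array, made with MAS5, per the submitters' processing notes; its version and scaling target are not given in the sources used here. The deposited intensities had trimmed means of 157 to 277 per array, so the arrays were quantile normalised, and log2(signal + 5.46) was taken, the pseudocount being the 10th percentile. Of 45101 probe sets, 34958 had 1 gene symbol in the platform annotation, 932 several and 9211 none. A gene was represented by its brightest single-symbol probe set; 13400 of 18194 genes, whose mean log2 signal reached its 40th percentile over probe sets (5.54), were tested.

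All 9 arrays entered a model with age and agent in limma 3.58.1 (R 4.3.3; lmFit, eBayes with trend), with 4 residual and 6.18 prior degrees of freedom, and p-values were adjusted by Benjamini-Hochberg over all tested genes at a threshold of 0.05. For members that did not pass the filter, such as Hbb-y, differences and standard errors came from the same model fitted to all 18194 genes, without a p-value. The fit was tested on simulated data. The residual spread mixes array noise with responses that differ between ages, and the number of arrays limits the precision. The members and lists were chosen with earlier results of these data known. Named were the 9 genes, pathway genes past the threshold or among the 3 of a list with the highest mean signal, and the 10 genes most alike in profile; others are said to be named for their values. Platform names can be old. Promoters came from RefSeq (GRCm38.p6). Alternatives changed the scaling, pseudocount, filter, choice of probe set and eBayes trend, and left out each array in turn. Tissue from P1, which the labels mention, was not analysed here.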

Additional observations from a re-analysis of the deposited data

Results flagged for a closer look

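The difference of an agent from control is listed here for 4 genes in which it had opposite signs at 2 ages. The list is not complete, since Hemgn, Klf1, Epb42 and Hbb-bh1 also changed sign. For Hemgn, DES minus control was 1.56 at E18 and -1.80 at P0. For Klf1, BPA minus control was -0.38 at E17 and 0.99 at P0, where the signals as deposited were 61.8 for BPA and 42.7 for control. Epb42 under BPA and Hbb-bh1 under DES changed sign at signals near the pseudocount. Each value is a log2 difference between 1 array and 1 control array, so the difference between ages was not tested. For Alas2, BPA minus control was 2.44 at E18 and -0.75 at P0. For Hba-x it was 0.92 at E18 and -0.91 at P0. For Hbb-y it was 2.42 at E18 and -0.64 at E17, and DES minus control was 1.78 at E17 and -0.90 at P0. For Slc4a1, BPA minus control was 1.74 at E18 and -1.51 at E17, and DES minus control was 0.75 at E17 and -0.87 at P0. DES minus control at E18, not among these pairs, was 1.52 for Hbb-y.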

How the results depend on the processing

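The count of red cell genes past an adjusted p of 0.05 for P0 against E17, 0 of 55 with normalised signals, was 5 with the signals as deposited (Bcl11a, Cpox, Hbb-b2, Slc25a37 and Tfrc), where the median of all genes was itself -0.26 log2 units. With each array left out in turn it ran from 0 to 3: it was 3 without the DES P0 array (Cpox, Mkrn1 and Tfrc) and 1 without BPA E18 (Slc25a37). For P0 against E18 it ran from 0 to 2, the latter without DES P0 (Cpox and Tfrc). The cause was not tested. The median of the 8 genes for DES against control, -0.05, ran from -0.18 to 0.26 with each array left out, and was 0.26 without control P0 and 0.23 without DES E18. The P0 minus E17 differences of Alas2, Hba-x, Hbb-y and Slc4a1 kept their sign under all 18 alternatives, Hbb-y between -3.78 and -2.11, while Klf1 turned sign under 3. The BPA minus control median at E18, a difference of 2 arrays that has no replicate check, was 1.09 with the mean over probe sets and 1.39 with a pseudocount of 1. An alternative chosen after seeing the data, without the BPA E18 and DES E17 arrays, gave a P0 minus E17 of -2.25 for Hbb-y and -0.90 for Alas2. The labels give no replicate numbers; agents are compared within ages, and ages within agents, by the model itself. Signals near the pseudocount (Hbb-bh1, Epb42, Hemgn and Hbb-y at P0) limit what can be read of those genes.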
